A study of Mus musculus with 36 samples.

Results

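Common lymphoid progenitors (CLP) were compared with haematopoietic stem cells (HSC) on 7 of the series' 36 arrays. The 4 CLP arrays carry the titles 1 to 3 or no number, and the unnumbered one is called CLP 4 here. The 3 stem cell arrays are those numbered 4 to 6, which were normalized together with the CLP arrays. The deposited table fell into 2 sets with different array medians, 5.12 to 5.22 in 15 arrays and 5.84 to 5.95 in 21, and only arrays of the second set were used for this contrast. Of 45101 probe sets, 34945 named exactly 1 gene, and 18193 genes entered the test, each through its brightest probe set. All values are log2 expression, so a difference of 1 is 2-fold, and a probe set's level is compared only with itself across arrays.

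All 36 arrays carried cells of C57BL6 mice, with an age label of 1 week and a sex label that covers both sexes, and no treatment or engineered allele is named for any group. The same 1 week label stands on 2 arrays of the fit that are titled adult, so the age label is open to doubt. The stem cells were sorted as LSKFlt3-CD48-CD150+, that is, lineage-negative cells positive for Sca-1 and Kit that lack Flt3 and CD48 and carry CD150. The labels give CLP no gate and call it a putative seeding population of the thymus. For these 7 arrays they name neither the tissue nor pooling, whereas stem cell arrays of the other set are labelled as bone marrow pooled from several mice. Nothing says that the arrays came from separate animals, so p-values measure the spread between these samples, which may be technical. Sorted populations were measured in bulk, and fewer cells of a type and less RNA per cell cannot be told apart.

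Stem cells sit at the root of blood formation and are held in the marrow niche by adhesion and growth factor signals. Lymphoid progenitors lie several steps downstream: they have taken up interleukin 7 and Flt3 signalling, opened the genes for V(D)J recombination, which assembles antigen receptor genes, and can still give B, T, natural killer and some dendritic and myeloid cells. Early B cell factor and Pax5 then set the B lineage, through a surrogate light chain made of VpreB and lambda5 proteins, while Notch signals in the thymus set the T lineage.

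The promoters of 5 genes are shown first, because the same genes recur below. On the lymphoid side they are those of the terminal transferase Dntt and the surrogate light chain genes Vpreb1 and Igll1. On the stem cell side they are those of the angiopoietin receptor Tek and the platelet chemokine Pf4. Of these 5, Igll1 did not differ between CLP and HSC beyond its error (0.05), and the call of Vpreb1 depended on single arrays, as given below. Each window holds 250 bases before and 50 bases after the annotated start, from RefSeq on build GRCm38.p6, and is written along the gene's strand. In the first 3, capitals mark the E-box CANNTG, read by E proteins, and the palindrome CCCNNGGG, a short form of the early B cell factor site. In the last 2, capitals mark the letters AGATAA, read by factors of the GATA family, and the Ets family core AGGAAG. Both strands were searched.
Dntt (chr19:41029025-41029324, plus strand): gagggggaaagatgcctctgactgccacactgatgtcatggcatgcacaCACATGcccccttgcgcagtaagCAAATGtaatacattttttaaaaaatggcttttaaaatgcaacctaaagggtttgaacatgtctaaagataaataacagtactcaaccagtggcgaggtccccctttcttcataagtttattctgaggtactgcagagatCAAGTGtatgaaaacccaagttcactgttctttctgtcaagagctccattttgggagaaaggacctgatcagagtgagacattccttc
Vpreb1 (chr16:16869206-16869505, minus strand): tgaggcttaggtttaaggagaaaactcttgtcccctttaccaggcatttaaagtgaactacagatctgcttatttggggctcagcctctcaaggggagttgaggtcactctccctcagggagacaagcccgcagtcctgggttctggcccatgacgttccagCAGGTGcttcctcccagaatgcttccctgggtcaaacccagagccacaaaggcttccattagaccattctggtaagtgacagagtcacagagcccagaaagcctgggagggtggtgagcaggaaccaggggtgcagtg
Igll1 (chr16:16863936-16864235, minus strand): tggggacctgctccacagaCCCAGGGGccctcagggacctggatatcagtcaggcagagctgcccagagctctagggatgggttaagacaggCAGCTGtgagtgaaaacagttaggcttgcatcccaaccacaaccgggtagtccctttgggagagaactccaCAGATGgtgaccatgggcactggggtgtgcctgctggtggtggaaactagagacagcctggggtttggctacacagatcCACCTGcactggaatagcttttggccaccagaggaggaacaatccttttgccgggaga
Tek (chr4:94739039-94739338, plus strand): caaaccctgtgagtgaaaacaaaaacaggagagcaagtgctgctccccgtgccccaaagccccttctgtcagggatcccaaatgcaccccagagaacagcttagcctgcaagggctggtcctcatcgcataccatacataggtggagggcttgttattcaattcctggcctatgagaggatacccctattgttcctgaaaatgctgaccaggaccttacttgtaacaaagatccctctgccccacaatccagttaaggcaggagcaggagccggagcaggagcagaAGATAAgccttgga
Pf4 (chr5:90772185-90772484, plus strand): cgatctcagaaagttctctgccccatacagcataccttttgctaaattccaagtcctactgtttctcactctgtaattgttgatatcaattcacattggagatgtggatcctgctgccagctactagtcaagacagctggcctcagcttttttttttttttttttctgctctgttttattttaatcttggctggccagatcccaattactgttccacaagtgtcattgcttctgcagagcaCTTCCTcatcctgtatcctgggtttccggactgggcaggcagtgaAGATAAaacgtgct
The Dntt window holds 3 E-boxes and no palindrome, the Vpreb1 window 1 E-box, and the Igll1 window 3 E-boxes and 1 palindrome. The Tek and Pf4 windows hold 1 AGATAA each, and Pf4 also 1 AGGAAG, on the opposite strand. Unmarked in the lines, the Dntt window holds 1 AGATAA too, the Vpreb1 window 1 AGGAAG, and the Tek and Pf4 windows 2 E-boxes each, so these letters do not set the lymphoid windows apart from the stem cell ones. Such matches are common: of all 32851 windows in the table, 72.3% hold an E-box, 13.7% the palindrome, 11.2% AGATAA and 35.4% AGGAAG. For 14452 of the tested genes a window was found. Windows of genes called higher in CLP (470 windows) held an E-box in 74.5% and the palindrome in 18.5%, against 65.3% and 20.6% in those of genes called lower (856 windows) and 67.5% and 17% in the 18109 windows of all tested genes. For AGATAA these shares were 7.45%, 8.64% and 8.09%, and for AGGAAG 34%, 36.6% and 33.8%. A match is a string of letters and not a bound site.

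In outline, CLP carried more transcript of the recombination genes Dntt, Rag1, Rag2 and Xrcc6 and of the receptors Il7r and Flt3. Of 18 lymphoid transcription factors 5 were called higher and 2 lower. Of 21 early myeloid genes 7 were called higher and 4 lower, with a median difference of 0.07. The stem cell regulator, stem cell surface and endothelial-like, imprinted and immediate early lists had more members lower than higher in CLP. The part of other cell types and of handling during the sort in these falls was not tested. Limma called 1261 genes at a Benjamini-Hochberg adjusted p under 0.05 and at least 2-fold, 453 of them higher and 808 lower in CLP. That is 6.93% of all genes tested, with 2.49% called higher and 4.44% lower, the shares against which the lists are read. Counted by probe set, 2452 of 34945 were called, or 7.02%. Over all genes the median difference was 0.08. At 8-fold or more there were 53 genes higher and 86 lower. The arrays of the groups did not overlap for 1174 of the called genes (93.1%), against 23.7% of all genes tested. Array correlations ran from 0.974 to 0.981 within CLP, from 0.969 to 0.972 within HSC and from 0.925 to 0.945 between them.

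**Figure D1:**
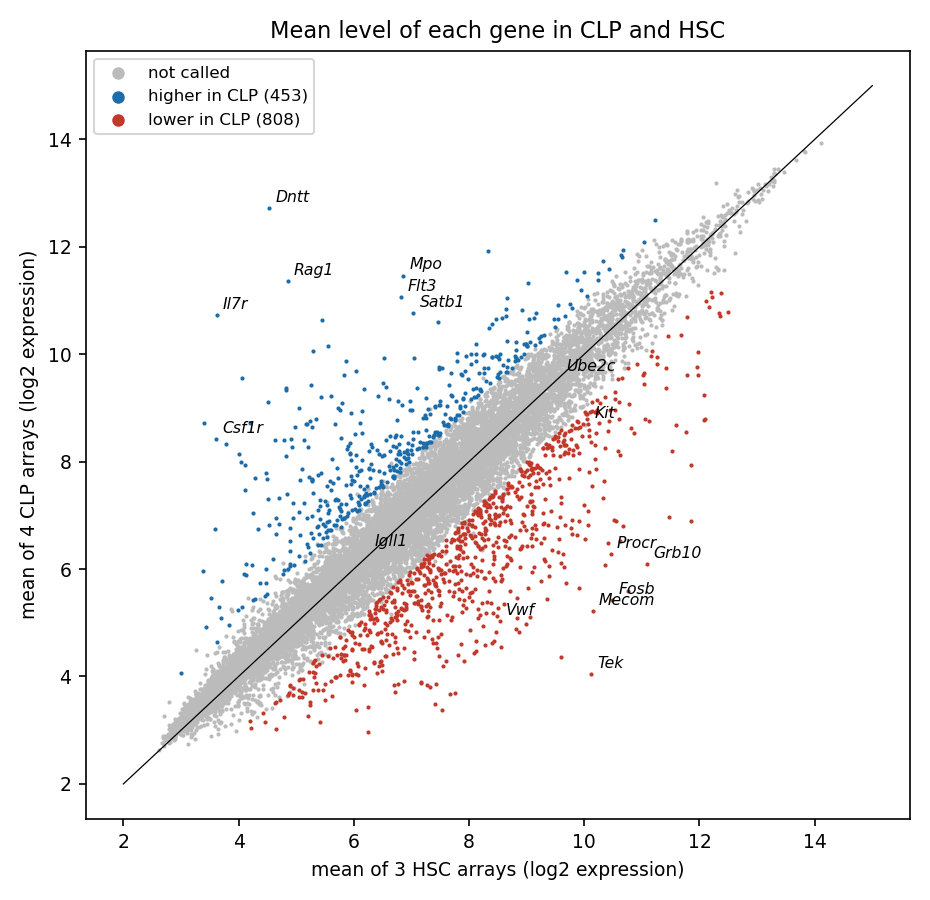
Mean log2 expression of each of 18193 genes over the 3 HSC arrays (horizontal axis) and the 4 CLP arrays (vertical axis), with 453 genes called higher in CLP in blue, 808 called lower in red and the line of equal levels in black. Dntt, Il7r and Rag1 stand farthest above the line and Tek farthest below it, while Ube2c and Igll1 lie on it.

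The labels were first set against the genes that define the populations. Il7r, the interleukin 7 receptor, stood at 11.08, 10.98, 10.54 and 10.32 on CLP 1 to 4 and at 3.57, 3.83 and 3.45 on HSC 4 to 6. It was higher in CLP by 7.11 ± 0.22 (SE), with a 95% interval from 6.64 to 7.58 (limma adjusted p = 4.8e-14). Flt3, the cytokine receptor that the HSC gate excludes, stood at 11.22, 11.23, 11.28 and 10.54 in CLP and at 7.54, 6.84 and 6.09 in HSC. Both receptors were high on every CLP array, and the groups lay far apart. Cd48, also excluded by the HSC gate, read 9.61 to 10.12 in CLP and 4.88, 7.47 and 5.23 in HSC, so that HSC 5 stood above the other 2 stem cell arrays. Slamf1, which encodes CD150, fell by 2.60 ± 0.20, from 7.71 ± 0.42 (SD, n = 3) to 5.11 ± 0.41 (n = 4).

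Kit, the stem cell factor receptor of the LSK gate, was lower in CLP by 1.37 ± 0.36 (limma adjusted p = 0.0119), at 8.21 to 9.04 against 9.93 to 10.31. Without HSC 6 its adjusted p was 0.0517. Cd34, a surface sialomucin of progenitors, was higher by 1.01 ± 0.16 and sat at the fold threshold: leaving out CLP 3, CLP 4, HSC 5 or HSC 6, or quantile normalization, took it below. All 7 measured gate and population genes were thus called, 4 higher and 3 lower, against 6.93% of all genes tested. They were picked as genes that define the populations, so this count is no independent support for the labels. Flt3, Cd48 and Slamf1 went the way the HSC gate sets.

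Tek, the receptor for angiopoietins, showed the largest fall of any gene whose arrays did not overlap. It stood at 10.18, 10.46 and 9.72 on HSC 4 to 6 and at 3.65, 3.50, 5.26 and 3.74 on CLP 1 to 4, a fall of 6.08 ± 0.29 (limma adjusted p = 4e-11). CLP 3 stood apart from the other CLP arrays. Several more transcripts that were lower in CLP than in HSC were raised on it, among them Procr (7.73 against 5.61 to 6.04) and Fabp4 (7.19 against 4.70 to 5.51). The part of this array in the falls was not tested, but without it the falls were called all the same for these 3 genes.

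The machinery of V(D)J recombination rose in part. Dntt, which adds untemplated bases at joints, stood at 12.87, 13.05, 12.45 and 12.54 in CLP and at 4.48, 4.71 and 4.41 in HSC. The difference of 8.19 ± 0.21, with a 95% interval from 7.76 to 8.62, was the largest of the named rises (limma adjusted p = 3.4e-15). Both other probe sets of Dntt were called the same way, with differences of 6.44 and 8.03. Rag1, a subunit of the recombinase, stood at 11.76, 11.62, 11.16 and 10.91 against 4.42, 5.25 and 4.89. It rose by 6.51 ± 0.21.

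Rag2, the partner subunit, stood at 10.51, 10.13, 10.19 and 9.75 in CLP, while in HSC it read 4.45 and 4.35 on arrays 4 and 5 and 7.84 on array 6. Its rise of 4.60 ± 0.52 therefore carried a wider error than that of Rag1, and a stem cell SD of 1.99 against 0.42 for Rag1. Xrcc6, the Ku70 subunit of end joining, rose by 2.21 ± 0.27. The remaining 6 of the 10 measured list members were not called: differences were 0.16 for Xrcc5, 0.44 for Prkdc, 0.66 for Lig4, -0.69 for Xrcc4, 0.31 for Nhej1 and 0.33 for Hmgb2. The list had 4 members higher (2.49% over all genes) and 0 lower, with a median of 0.55. The enzymes that cut and extend the ends thus rose, with Ku70, and 6 other end-joining and cofactor genes did not pass the test.

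Lymphoid transcription factors split. Of 18 measured members 5 were higher and 2 lower in CLP, with a median of 0.47. Satb1, a chromatin organiser, stood at 10.68, 11.01, 10.67 and 10.73 against 6.68, 6.82 and 7.61, a rise of 3.74 ± 0.19. Ebf1, the early B cell factor, stood at 8.89, 9.09, 8.98 and 8.89 against 6.12, 5.47 and 5.71, a rise of 3.19 ± 0.19, with an SD of only 0.10 over the CLP arrays.

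Pou2af1, a B cell coactivator of Oct factors, was higher by 3.96 ± 0.50, at 8.56 and 8.48 on CLP 1 and 2 and 7.35 and 7.59 on CLP 3 and 4, with HSC at 2.93, 5.80 and 3.38. Pax5, the B lineage commitment factor, was higher by 1.43 ± 0.37 (limma adjusted p = 0.0108), at 7.48, 8.51, 6.79 and 6.10 in CLP and 5.89, 5.90 and 5.57 in HSC. CLP 4 thus stood only just above the stem cell arrays in Pax5. The Pax5 difference was 0.72 and not called without HSC 5, CLP 1 and CLP 2 together, and it was not called (1.43, limma adjusted p = 0.117) in a fit of the 7 arrays alone. Ikzf1 (Ikaros) rose by 1.55 ± 0.17.

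The falls among these factors were those of Ikzf2 (Helios) and Zfp521, a zinc finger protein that binds early B cell factor and opposes it. Ikzf2 stood at 9.59, 9.49 and 9.81 in HSC and at 6.15, 6.41, 6.74 and 5.79 in CLP, a fall of 3.36 ± 0.21. Zfp521 fell by 2.17 ± 0.23, from 6.56 ± 0.54 (SD, n = 3) to 4.39 ± 0.27 (n = 4). Ikzf1 and Ikzf2, both of the Ikaros family, moved in opposite directions. The E protein genes Tcf3, Tcf4 and Tcf12 were not called, with differences of 0.39, 0.34 and -0.17, and neither were Bcl11a (0.09), Foxo1 (0.39) or Lef1 (-0.48).

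Transcripts of the B lineage were present in part. Of 18 measured members of the pre-B receptor and B lineage list 6 were higher and 0 lower, with a median of 0.72. Blnk, the adaptor of the pre-B receptor, stood at 8.33, 8.19, 6.79 and 6.58 on CLP 1 to 4 and at 3.74, 4.26 and 4.34 in HSC, a rise of 3.36 ± 0.33. Cd79a, a signalling chain of the same receptor, stood at 8.53, 9.0, 7.09 and 6.51 against 5.09, 5.89 and 5.32, a rise of 2.35 ± 0.41. In both genes CLP 1 and 2 stood above CLP 3 and 4, as in Pou2af1 and Pax5, and all 4 CLP arrays stood above all 3 HSC arrays.

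Cnn3, a calponin of early B precursors, rose by 3.14 ± 0.19, and Cd72, an inhibitory coreceptor, by 1.69 ± 0.35. Without HSC 5, CLP 1 and CLP 2 the Cd72 difference was 1.38 and not called. Cecr2, a bromodomain chromatin factor, rose by 1.19 ± 0.19, and by 2.03 with its most variable probe set. Tested against 1.5-fold with limma's treat, Cecr2 was not called (adjusted p = 0.0604). Vpreb1, which makes a protein of the surrogate light chain, was higher by 1.49 ± 0.48 with a limma adjusted p of 0.0389. It read 10.14, 10.59, 9.23 and 9.03 in CLP against 8.55, 8.49 and 7.72 in HSC, and its near-identical copy could share the signal. Vpreb1 was not called without CLP 1 (1.36), CLP 2 (1.21), HSC 4 (1.64), HSC 5 (1.61) or HSC 6 (1.23), each left out alone, whereas it was still called without CLP 3 or CLP 4. With array weights it was not called (1.45, limma adjusted p = 0.105), nor in the fit of the 7 arrays alone (limma adjusted p = 0.0539), while the fit over all 36 arrays gave 2.36 and called it (limma adjusted p = 0.00292).

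Igll1, the lambda5 gene that makes the other protein of the surrogate light chain, did not follow. It stood at 6.33, 6.22, 6.22 and 6.46 in CLP and at 6.20, 6.48 and 6.07 in HSC, a difference of 0.05 ± 0.20 with a 95% interval from -0.37 to 0.48. On pro-B arrays of the same set it read 12.54 on average, so that CLP minus pro-B was -6.23. The same difference was -1.84 for Ebf1, -3.54 for Pax5, -3.41 for Cd79a, -2.66 for Blnk and -3.17 for Vpreb1. Both comparisons share the CLP arrays. In the test of CLP against pro-B, in which 3.36% of all genes were called lower in CLP and 2.55% higher, 12 of the 18 list members were lower in CLP and 0 higher. By this measure Ebf1, Pax5, Cd79a, Blnk and Vpreb1 in CLP lay between stem cells and pro-B cells, though the call of Vpreb1 against HSC depended on single arrays. Igll1 did not differ from stem cells beyond its error. On the LSKFlt3hi IL7R+ arrays (LSK) of the same set the list mean was 8.01 to 8.12, against 7.31 to 7.77 in CLP. Against LSK, 1 of the 18 members was lower in CLP and 0 higher, where 0.324% and 0.011% of all genes were. Recombination list means were 9.19 to 9.25 in LSK and 8.79 to 9.15 in CLP, with 0 members called.

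**Figure D2:**
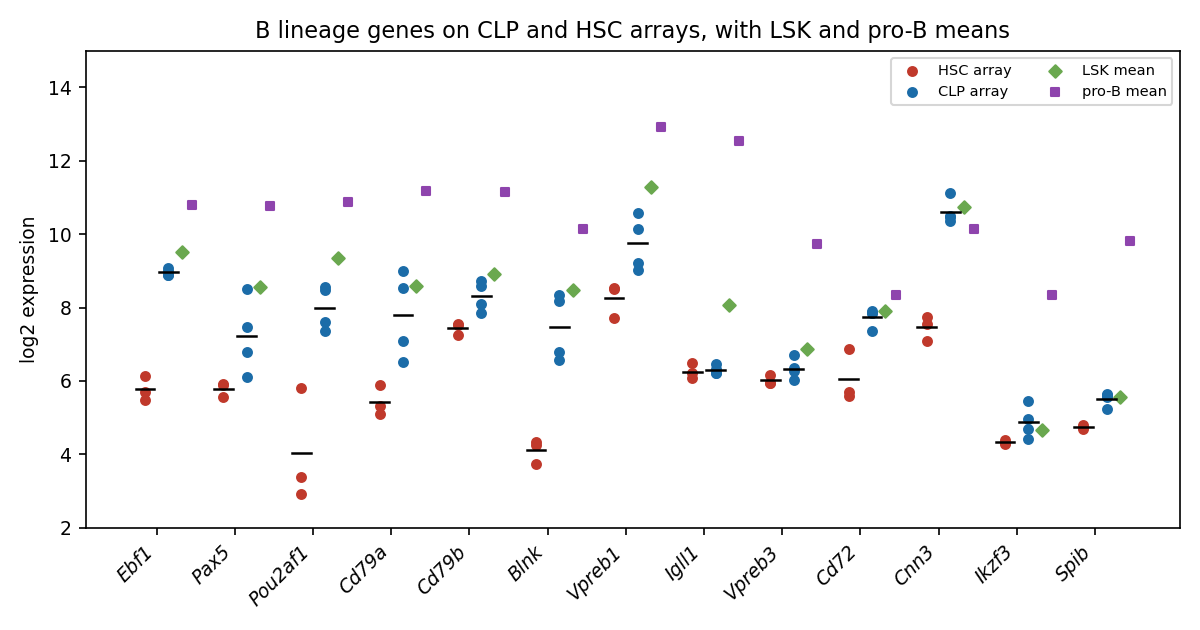
Log2 expression of B lineage genes on each HSC array (red) and CLP array (blue), with group means as bars, and the mean of the 3 LSK (green) and 3 pro-B arrays (purple) of the same set. Igll1 lies at about the same level in HSC and CLP and at 12.54 in pro-B, and the CLP arrays fall into an upper and a lower pair in Cd79a and Blnk.

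T lineage transcripts were not raised. Of 18 measured members 0 were called higher and 1 lower, with a median of 0.19. In the same limma fit 4 members had an unadjusted p under 0.05, against 5057 of all 18193 genes. Cd3e stood at 4.25 to 5.06 in CLP and 4.45 to 4.82 in HSC, Ptcra, the pre-T receptor chain, differed by 0.03, and Bcl11b, the T commitment factor, by 0.01. The member that fell was Thy1, a surface glycoprotein, by 1.56 ± 0.35. Thy1 lost its call without HSC 5, CLP 1 and CLP 2 together (-1.25).

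Notch1, the receptor that drives thymic commitment, rose by 1.90 ± 0.18, from 8.53, 8.99 and 9.24 in HSC to 10.98, 10.72, 11.09 and 10.50 in CLP. Its targets moved both ways: of 10 measured, 2 were higher (Hes5 1.21, Dtx1 1.06) and 3 lower (Rgs1 -1.42, Hey1 -1.28, Deptor -1.16), with a median of 0.02. Without HSC 5, 0 targets were called higher (Hes5 0.94, Dtx1 0.98), and Rgs1 was not called either (-1.01, limma adjusted p = 0.0785). Dtx1 also lost its call without CLP 2 (0.85) or HSC 4 (0.92), and Hey1 without HSC 5, CLP 4 and CLP 1 together (-0.96). Hes1 differed by 0.14 and Nrarp by -0.05.

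Receptors for growth factors moved with the gates and beyond. Of 19 measured, 4 were higher and 2 lower. Besides Il7r, Flt3 and Notch1, the receptor for macrophage colony-stimulating factor, Csf1r, stood at 8.96, 8.63, 8.40 and 7.69 in CLP and at 3.69, 3.55 and 3.58 in HSC, a rise of 4.81 ± 0.35. Its other 2 probe sets differed by 0.30 and 1.31, so that the mean over probe sets rose by 2.14. Epor, the erythropoietin receptor, fell by 1.69. Cxcr4, the marrow retention receptor, was higher by 0.88 ± 0.15 (limma adjusted p = 0.000376), short of the 2-fold threshold.

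Early myeloid transcripts were higher in CLP than in HSC for 7 of 21 measured genes and lower for 4, with a median of 0.07. Mpo, the peroxidase of primary granules, stood at 11.40, 11.41, 11.73 and 11.32 in CLP and at 7.40, 8.74 and 4.44 in HSC. The rise of 4.61 ± 0.73 rests on stem cell arrays that spread over more than 4 log2 units, with an SD of 2.20 against 0.18 in CLP. Cd33, a sialic acid receptor of myeloid progenitors, rose by 3.76 ± 0.24, Plac8 by 3.58 ± 0.23, Ly86, an accessory of the Toll-like receptor family, by 2.80 and Irf8, the monocyte and dendritic cell factor, by 2.02.

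Other granule genes of the same list were uneven. Ctsg, a further granule gene, was also called higher, by 1.15, but not without CLP 4 (0.96), HSC 4 (1.02) or HSC 6 (0.96). Several others went the other way or did not move. Prtn3, a granule protease, fell by 1.65 ± 0.22, from 7.91, 8.31 and 8.44 to 6.10, 6.22, 7.12 and 6.83. Elane, a neighbouring protease gene, differed by 0.11 and stood between 3.90 and 4.28 on all 7 arrays. That is below the lower quartile of every array of the set (4.41 to 4.67), where a change would be hard to see. Gfi1, a transcriptional repressor, fell by 1.88, Cebpb by 1.16 and Lyz1, a lysozyme gene whose close copy Lyz2 differed by -0.91, by 1.19. Cebpb was not called without HSC 4 (-0.87), nor Lyz1 without CLP 4 (-0.91). Spi1 (PU.1) differed by 0.07 and Cebpa by 0.65, neither called. Mpo and Prtn3, both primary granule genes, thus moved in opposite directions.

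Late neutrophil granule transcripts were raised on some arrays of both groups and did not separate them. S100a9, an alarmin of neutrophils, stood at 11.76, 10.38, 9.22 and 6.88 on CLP 1 to 4 and at 8.20, 10.73 and 5.78 on HSC 4 to 6, a difference of 1.32 ± 1.03. The mean over the 16 measured genes of this list was 7.64, 6.63, 5.88 and 5.53 on CLP 1 to 4 and 5.72, 6.79 and 5.14 on HSC 4 to 6. Of these 1 was called, Mmp9, and its level of 8.69 on CLP 1 stood well above 5.89 to 6.29 on the others. Without CLP 1 Mmp9 differed by 0.79 and was not called, and it was not called without HSC 5 (1.34) or HSC 6 (1.39).

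CLP 1 and 2 are also the arrays with the higher B lineage levels. The part of late neutrophil RNA in any result was not tested. Without HSC 5, CLP 1 and CLP 2 together, 1191 genes were called, 473 higher and 718 lower. Red cell genes had 0 of 7 called either way in limma, 2 of 7 with an unadjusted p under 0.05, against 5057 of all 18193 genes. Of the red cell genes Rhag, at -0.97, passed the fold threshold without CLP 1 (-1.01) or HSC 4 (-1.31). Their mean ran from 5.24 to 6.53 in CLP and from 5.57 to 6.26 in HSC.

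Genes of natural killer and innate lymphoid cells were higher in 5 of 17 measured and lower in 0, with a median of 0.28. Nfil3, a transcription factor of innate lymphoid development, stood at 9.32, 8.69, 8.66 and 9.11 against 6.66, 6.43 and 5.32, a rise of 2.81 ± 0.26. Tyrobp, the DAP12 signalling adaptor, rose by 2.18, Nkg7 by 1.72, Klrd1 by 1.49 and Fcer1g, another signalling adaptor, by 1.11. Fcer1g was not called without CLP 3 (0.88), nor Klrd1 without HSC 5, CLP 1 and CLP 2 together (1.24). The effector and master genes Gzma, Prf1, Eomes, Tbx21 and Ncr1 were not called, with differences from 0.08 to 0.32. The members that rose include the 2 adaptors, which myeloid cells use as well.

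Of 14 dendritic cell and MHC class II genes, 3 were higher and 0 lower: Flt3, the chaperone chain H2-DMa (1.59) and Itgax, the CD11c integrin (1.17). The classical class II genes H2-Aa, H2-Ab1 and H2-Eb1 were not called, at -0.56, 0.55 and -0.11. H2-Ob, which encodes a chain that tunes class II peptide loading, was among the largest rises of all, at 10.12, 10.11, 9.40 and 8.63 in CLP against 4.35, 4.11 and 3.73 in HSC, a rise of 5.50 ± 0.27.

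Other genes with the largest rises had less familiar roles in this lineage. Cd244a, a SLAM family receptor, stood at 10.66, 10.63, 10.66 and 10.59 in CLP and at 5.17, 6.63 and 4.53 in HSC, a rise of 5.19 ± 0.30. The CLP arrays differed from each other by no more than 0.07 in this gene. Bex6 rose by 5.33 ± 0.32 and Tifab by 4.60 ± 0.38. St8sia1, a sialyltransferase, rose by 4.55, Gfra1, a receptor for glial-derived neurotrophic factor, by 4.54, Arap2 by 4.52, Cmah, an enzyme of sialic acid hydroxylation, by 4.51 and BC035044 by 4.76. For St8sia1 and Gfra1 the mean over their 3 probe sets each gave smaller rises of 2.68 and 2.85.

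**Figure D3:**
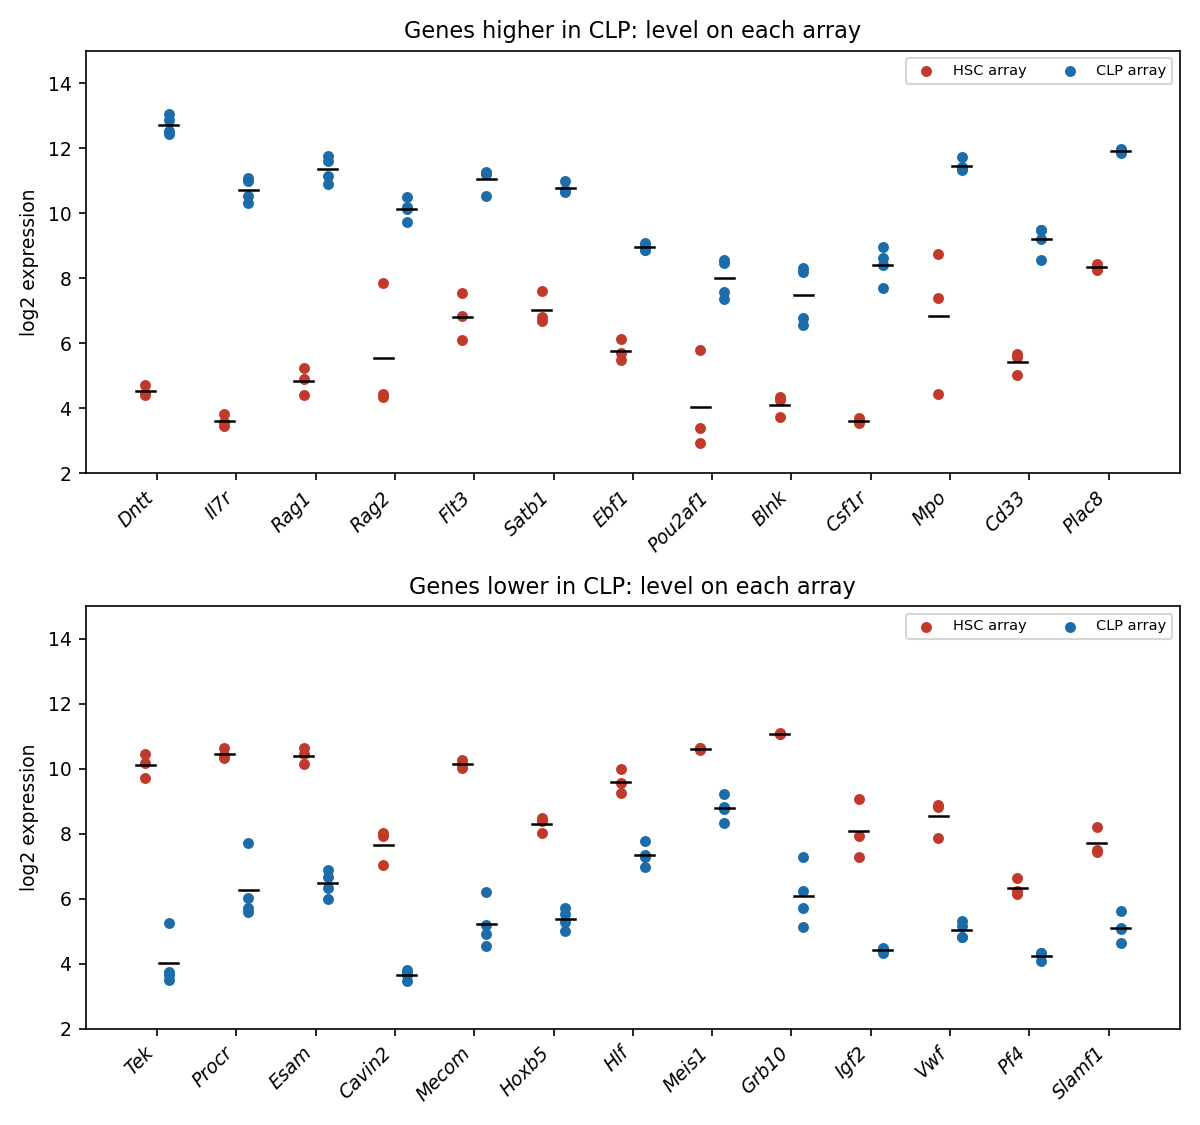
Log2 expression on each of the 3 HSC arrays (red) and 4 CLP arrays (blue), with group means as bars, for genes higher in CLP (upper panel) and lower in CLP (lower panel). The groups do not overlap in any gene shown, HSC spreads widest in Mpo and Rag2, and CLP 3 stands above the other CLP arrays in Tek and Procr.

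On the stem cell side, regulators of transcription fell. Of 27 measured members of that list 13 were lower and 1 higher, with a median of -0.98, where 4.44% of all genes were called lower. Mecom, the Evi1 locus needed for stem cell upkeep, stood at 10.14, 10.03 and 10.28 in HSC and at 5.20, 4.54, 6.20 and 4.92 in CLP, a fall of 4.93 ± 0.27. The mean over its 3 probe sets was lower by 2.48. Hoxb5 fell by 2.92 ± 0.25, Egr1 by 2.90 ± 0.54. The change in Ndn (necdin) was -2.44 ± 0.33. Egr1 was not called without HSC 5, CLP 1 and CLP 2 together (-1.58).

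Hlf, a leucine zipper factor of stem cells, stood at 9.99, 9.26 and 9.55 against 6.97, 7.36, 7.77 and 7.28, a fall of 2.25 ± 0.20. Lmo2 and Tal1, partners in a haematopoietic complex, fell by 1.93 and 1.62, Meis1 by 1.82, Gata2 by 1.55 and Mycn by 1.12. Mycn was not called without CLP 1 (-0.99) or with the mean over probe sets (-0.96), and with its most variable probe set the change was -1.77. Other members of the same programme did not pass the test: Runx1 differed by -0.23, Hoxa9 by -0.10, Lyl1 by 0.22, Gfi1b by -0.15, and Erg by -0.68, short of 2-fold. Hmga2, a chromatin protein of fetal and neonatal stem cells, was the member that rose, by 1.26 ± 0.17.

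Surface and endothelial-like genes fell as well: 17 of 27 were lower and 1 (Cd34) higher, with a median of -1.82. Procr, the endothelial protein C receptor, stood at 10.63, 10.33 and 10.42 in HSC and fell by 4.18 ± 0.36. Cavin2, a caveolar coat protein, stood at 7.93, 8.03 and 7.05 against 3.74, 3.65, 3.83 and 3.47, a fall of 4.0 ± 0.19. Esam, an adhesion molecule shared with endothelium, stood at 10.45, 10.64 and 10.14 against 6.00, 6.67, 6.90 and 6.34, a fall of 3.93 ± 0.19. Fgd5 fell by 3.65, and Angpt1, the ligand of Tek, by 3.0.

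Other large falls lay outside these lists or crossed into them. The potassium channel subunit Abcc9 fell by 5.24 ± 0.31, the fatty acid binding protein Fabp4 by 5.18 ± 0.47, Epas1 (HIF-2α) by 4.27, the lymphatic receptor Flt4 by 4.26 and the calcium channel Trpc6 by 4.16 ± 0.12. Trpc6 read 7.48, 7.57 and 7.55 in HSC and 3.24 to 3.48 in CLP, among the tightest separations. Fstl1 fell by 4.10, Inhba, an activin subunit, by 4.04 and Tmem204 by 4.07 ± 0.66, the last with HSC at 7.76, 9.84 and 5.66. The mean over probe sets gave -2.03 for Inhba and -1.95 for Tmem204, and the fit over all 36 arrays gave -2.68 for Flt4.

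Marrow stroma and endothelium markers moved with these falls. Of 19 measured genes 8 were lower in CLP and 0 higher, with a median of -1.12. The list mean was 7.96, 7.68 and 6.78 on HSC 4 to 6 and 5.39 to 5.95 in CLP. Defining collagen genes of stroma were uneven: Col1a1 stood at 11.77 on HSC 4, 6.18 on HSC 5 and 5.89 on HSC 6, against 5.61 to 7.93 in CLP, and was not called (-1.12). Cxcl12, Lepr and Pdgfra, further stromal markers, read 4.06 to 5.64 on all 3 HSC arrays and differed by 0.13, 0.22 and 0.19.

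Endothelial markers were highest on HSC 5: Kdr read 7.83, 10.11 and 7.09, Cdh5 7.52, 9.42 and 7.43 and Mrc1, a scavenger receptor of macrophages and sinusoids, 7.75, 9.83 and 8.10 on HSC 4 to 6. CLP arrays read at most 5.91, 5.29 and 5.14 in these 3 genes. Sparc, a matrix protein, fell by 4.50 ± 0.49, Col4a1 by 4.96 ± 0.30 and Col4a2 by 4.01 ± 0.22. The part of other cell types in these falls was not tested. In the macrophage list 2 of 13 were lower (Mrc1 and Axl) and 0 higher, while Adgre1, C1qa and Cd5l differed by 0.05, 0.08 and 0.36.

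Imprinted growth-control genes were lower in 9 of 13 and higher in 0, with a median of -1.89, and the count was 9 whichever single array was left out. Grb10, an adaptor that damps insulin and growth factor signals, stood at 11.08, 11.06 and 11.11 in HSC and at 5.71, 6.25, 7.27 and 5.14 in CLP, a fall of 4.99 ± 0.34. Igf2, the growth factor, stood at 7.28, 9.06 and 7.95 against 4.45, 4.42, 4.50 and 4.35, a fall of 3.66 ± 0.28. Plagl1 fell by 3.60 ± 0.63, the noncoding RNA Meg3 by 2.50, Mest by 2.41, Cdkn1c (p57) by 1.89 and Peg3 by 1.87. Igf2r, Dlk1 and Gnas were not called, at -0.46, -0.25 and -0.12. Meg3 has 11 probe sets, whose mean was lower by 0.61 and not called.

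Megakaryocyte and erythroid genes were lower in 6 of 20 and higher in 1, with a median of -0.26. Vwf, von Willebrand factor, stood at 8.83, 7.87 and 8.90 in HSC and at 4.84, 4.83, 5.33 and 5.15 in CLP, a fall of 3.50 ± 0.21. Car2, carbonic anhydrase, fell by 2.36 and Pf4, whose promoter is printed above, by 2.09 ± 0.14. Gata1, Klf1, Gp9 and Itga2b were not called, at -0.44, 0.02, -0.21 and -0.29. The gene that rose was Tfrc, the transferrin receptor that dividing cells use for iron, by 2.14 ± 0.22.

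**Figure D4:**
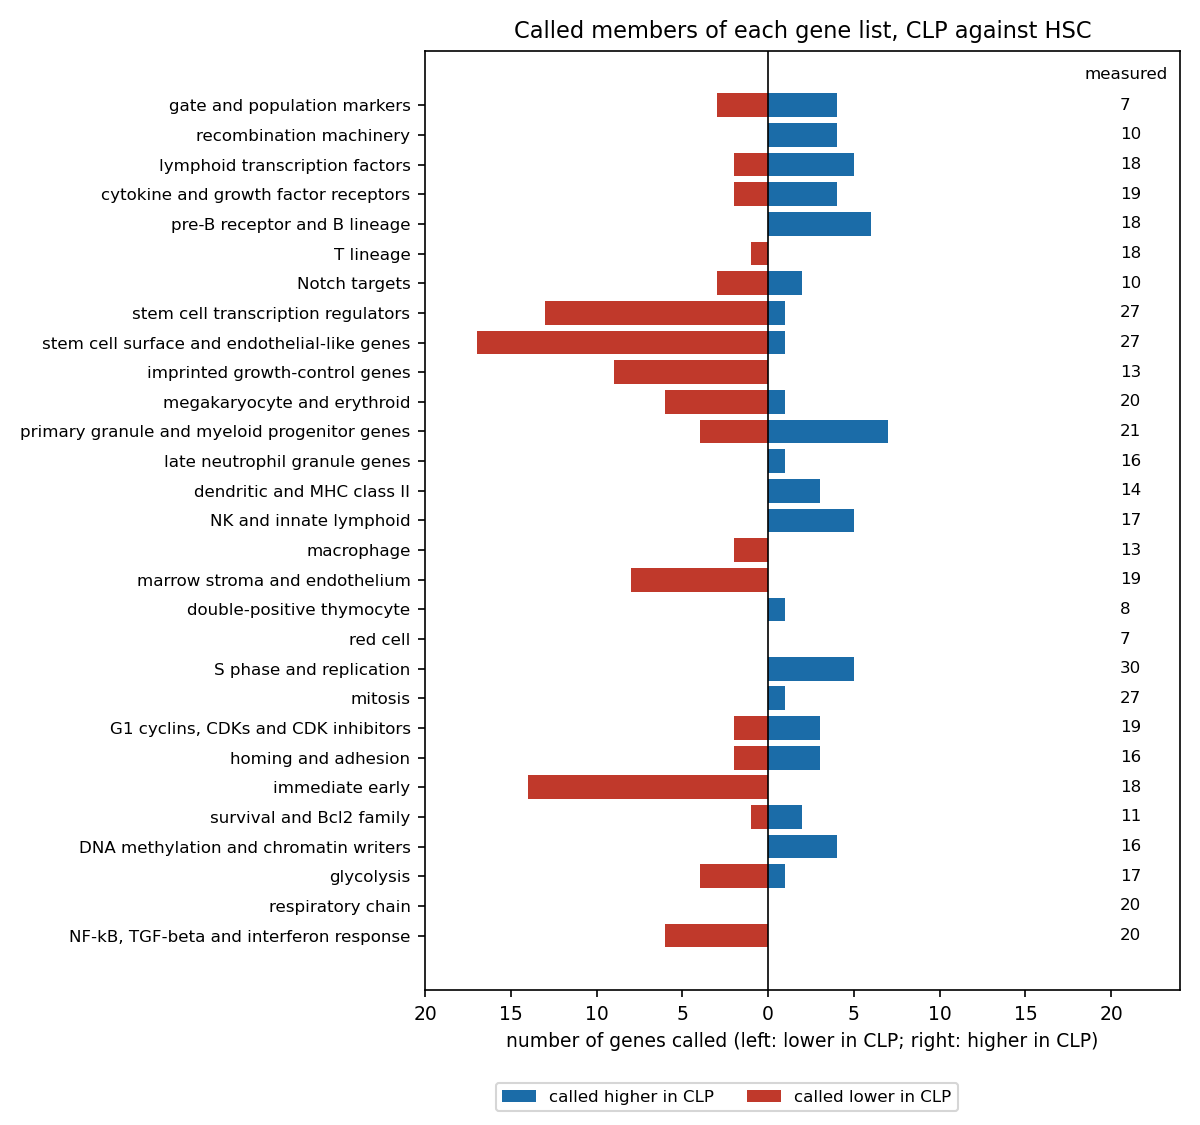
Number of members of each of 29 gene lists called lower (red, left) and higher (blue, right) in CLP against HSC, with the number measured at the right. Stem cell, imprinted, immediate early and stroma lists lie mostly to the left, and recombination and B lineage lists to the right.

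Immediate early genes, which respond within minutes to growth signals and to handling, were lower in CLP in 14 of 18 and higher in 0, with a median of -2.18. Fosb stood at 11.22, 11.20 and 9.03 in HSC and at 4.53, 4.42, 7.95 and 4.81 in CLP, a fall of 5.06 ± 0.83. Fos stood at 12.57, 12.36 and 10.61 against 5.67, 7.76, 10.16 and 8.13, a fall of 3.92 ± 0.82. Dusp1, a phosphatase of the same response, and Klf6 fell by 3.31 and 3.30. HSC 6 was the lowest stem cell array and CLP 3 the highest CLP array in each of these.

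The list mean was 10.40, 10.11 and 8.42 on HSC 4 to 6 and 7.05, 7.19, 8.25 and 7.43 on CLP 1 to 4, so that HSC 6 and CLP 3 differed by little. Nr4a1, a nuclear receptor gene, read 4.82 on HSC 6 and 7.03 on CLP 3, and its groups overlapped. The Nr4a1 difference was -3.02, and it was not called without CLP 1 (-2.59), CLP 2 (-2.76), CLP 4 (-3.15), HSC 4 (-1.81) or HSC 5 (-2.45), while without HSC 6 it was -4.80. Without HSC 5, CLP 1 and CLP 2 the count fell to 7, and neither Fos (-2.44) nor Nr4a1 was called. The part of handling during the sort in this list was not tested. Junb, Egr2, Egr3 and Atf3 were not called. Of 20 genes of the NF-κB, TGF-β and interferon responses 6 were lower and 0 higher, led by Ifitm1 (-3.33 ± 0.42), Nfkbiz (-1.74) and Ifitm3 (-1.71). Without HSC 5, CLP 1 and CLP 2 that count was 2, and Nfkbiz was not among the genes called (-1.26).

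Cell cycle genes were read in 2 lists, DNA replication and mitosis. Of 30 measured S phase and replication genes 5 were higher in CLP and 0 lower, with a median of 0.70. At a limma adjusted p under 0.05 without the fold threshold 17 were higher, against 1405 of all 18193 genes. The count of 5 became 9 with the mean over probe sets or the most variable probe set. Cdc6, which loads the replicative helicase, stood at 8.84, 9.03, 9.11 and 9.26 in CLP and at 7.08, 6.88 and 6.56 in HSC, a rise of 2.22 ± 0.16. Gins1 rose by 1.76, Rrm2, a ribonucleotide reductase subunit, by 1.5, Uhrf1 by 1.5 and Mcm2 by 1.10. Mcm2 fell below the fold threshold without HSC 5 (0.97) or HSC 6 (just under 1). The list mean lay between 9.35 and 9.50 on the CLP arrays and between 8.60 and 8.88 on the HSC arrays.

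Of 27 mitosis genes 1 was higher, the checkpoint kinase Bub1 (1.36 ± 0.33), and 0 lower, with a median of 0.42. Without the fold threshold 8 were higher, against 1405 of all 18193 genes. Bub1 was not called without HSC 6 (1.08), with the mean over probe sets (0.91) or in the fit of the 7 arrays alone (limma adjusted p = 0.059). The count of 1 became 3 without CLP 1 or without HSC 4, 2 without CLP 2, 4 with the most variable probe set, and 3 without HSC 5, CLP 1 and CLP 2 together. In the fit of the 7 arrays alone the count was 0. Both lists leaned towards CLP in their medians (0.70 and 0.42, against 0.08 over all genes), and the difference between the lists was not tested. Ube2c, which drives exit from mitosis, stood at 9.81, 9.02, 9.63 and 9.82 in CLP and at 9.59, 9.44 and 9.68 in HSC, a difference of -0.00 ± 0.21 with a 95% interval from -0.44 to 0.44. Aurka differed by 0.08, Plk1 by -0.32, Tpx2 by 0.17 and Mki67, the Ki-67 antigen, by 0.25, none of them called.

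The LSK arrays of the same set (LSKFlt3hi IL7R+, labelled as thymic seeding progenitors) place these values. This comparison shares the CLP arrays with the one against HSC. Against LSK, 0 of 30 S phase genes were called in CLP and the median difference was -0.07. Of the mitosis genes 18 of 27 were lower in CLP and 0 higher, with a median of -1.18, where 0.324% of all genes were called lower in CLP and 0.011% higher (59 and 2 genes). Ube2c was lower by 2.03 in CLP than in LSK (limma adjusted p = 7.9e-05). In mean level the mitosis list lay between 8.28 and 8.40 in HSC, 8.60 and 8.94 in CLP and 9.91 and 9.94 in LSK. The S phase list lay between 9.42 and 9.54 in LSK, a range that overlaps the CLP arrays, whereas the mitosis list in CLP lay nearer the stem cell arrays than LSK.

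**Figure D5:**
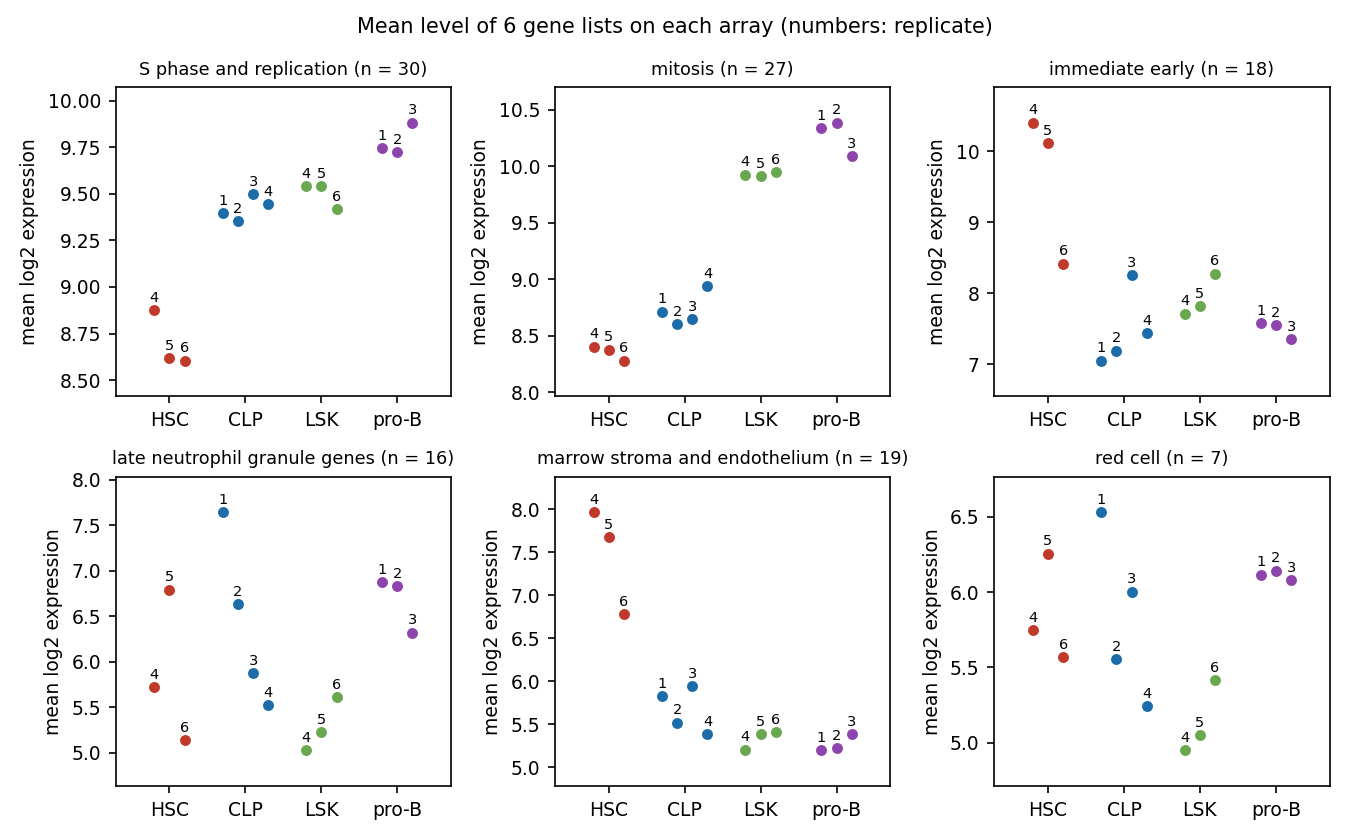
Mean log2 expression of 6 gene lists on each HSC, CLP, LSK and pro-B array of the same set, with replicate numbers beside the points and a different vertical range in each panel. CLP overlaps LSK in S phase genes (9.35 to 9.50 in CLP) and near HSC in mitosis genes, HSC 6 and CLP 3 lie close in immediate early genes, and late neutrophil genes are raised on CLP 1, CLP 2 and HSC 5.

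Regulators of G1 changed alongside. Of 19 measured, 3 were higher and 2 lower. Cdk6, a kinase that opens the cycle in blood progenitors, stood at 10.81, 10.54, 10.80 and 10.72 in CLP and at 8.70, 8.59 and 8.64 in HSC, a rise of 2.07 ± 0.11. Myc rose by 1.53 ± 0.17 and Cdk4 by 1.02. Cdk4 fell below the fold threshold without CLP 1 (0.97), CLP 3 (0.95) or HSC 6 (0.75). The inhibitors Cdkn1c and Cdkn1b (p27) fell by 1.89 and 1.07, and Cdkn1b was not called without CLP 4 (-0.89) or HSC 5 (-0.96). Cyclin genes were not called: Ccnd1 differed by 0.56, Ccnd2 by -0.02 and Ccnd3 by 0.82.

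Among 16 chromatin and DNA methylation genes 4 were higher and 0 lower. Ezh2, the methyltransferase of Polycomb complex 2, stood at 9.89, 10.03, 9.99 and 9.98 against 8.97, 8.72 and 8.69, a rise of 1.18 ± 0.14. Bmi1 rose by 1.14, Cbx2 by 1.09 and Hells, a helicase, by 1.07, and without HSC 5, CLP 1 and CLP 2 the count was 2. Bmi1 was not called without HSC 6 (0.94), Cbx2 without CLP 2 (just under 1) or Hells without CLP 3 (0.85) or HSC 5 (0.80). The DNA methyltransferases Dnmt1, Dnmt3a and Dnmt3b differed by 0.28, 0.02 and 0.08. Ezh1, the paralogue of Ezh2, differed by -0.43 and was not called.

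Metabolic genes moved in part. Of 17 glycolysis genes 4 were lower and 1 higher. Eno2 (enolase 2) stood at 6.02, 6.71 and 6.76 in HSC and at 3.91, 4.01, 4.42 and 4.06 in CLP, a fall of 2.39 ± 0.18. Aldoc fell by 1.86, the hexokinase Hk1 by 1.74 and Ldhb by 1.48, while Aldoa, Hk2 and Ldha, which encode other forms of the last 3 enzymes, were not called, at -0.11, -0.17 and 0.14. Pkm, a pyruvate kinase gene, differed by 0.05. Slc16a1, a lactate and pyruvate carrier, rose by 1.22, and by its most variable probe set differed by 0.29 and was not called. In the respiratory chain 0 of 20 genes passed the fold threshold in limma, with 11 at an unadjusted p under 0.05, against 5057 of all 18193 genes. In this list the median difference was 0.38. At a limma adjusted p under 0.05 alone 9 of its genes were higher, against 1405 of all 18193 genes. Among the 9 were Cycs (cytochrome c) at 0.98 ± 0.18 and Sdhb at 0.64 ± 0.12. Cycs passed the fold threshold without CLP 2 (1.13) or HSC 4 (1.15), and without HSC 4 the count was 2.

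Homing genes moved both ways. Of 16 homing and adhesion genes 3 were higher and 2 lower. Ccr7, a chemokine receptor used by progenitors that enter the thymus, stood at 7.11, 6.76, 6.76 and 6.34 against 4.36, 4.46 and 4.21, a rise of 2.40 ± 0.33. Ccr9, its partner in thymus entry, rose by 1.45 ± 0.21 and the integrin Itgal by 1.71. S1pr1, the receptor that leads cells out of tissues, stood at 9.11, 8.80 and 7.74 in HSC and 5.21, 6.24, 5.78 and 5.85 in CLP, a fall of 2.78 ± 0.27, and Itga6 fell by 1.82. Ccr9 was also the 1 gene of 8 higher among double-positive thymocyte markers.

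Of 11 survival genes 2 were higher, the death genes Bcl2l11 (1.06 ± 0.35) and Bid (1.01 ± 0.21), and 1 lower, the survival gene Mcl1 (-1.13 ± 0.15). Bcl2 itself differed by 0.30 and Bcl2l1 by -0.05. Both rises stood at the fold threshold, and without CLP 3 neither was called. Bcl2l11 was also not called without CLP 1 (0.99), CLP 4 (1.05), HSC 4 (0.68) or HSC 5 (1.23), Bid without CLP 2 (0.98) or HSC 6 (0.84), and Mcl1 without HSC 5, CLP 1 and CLP 2 together (-0.99). Of 772 called genes with several probe sets, 408 had another probe set called the same way and 1, Gphn, had one called the opposite way.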

How the data were processed

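Sorted blood progenitors of mice were measured on 36 arrays, of which 7 enter this contrast and 21 the fit. Per the labels' protocols, total RNA was extracted with Trizol, amplified with a Nugen kit and labelled with biotin. The deposited values are log2 expression made by the authors with RMA, as the submitters' processing notes name it (per the labels). Their range reads as log2, but the sources used here give neither the log base nor the version of RMA. RMA sets background, scale and probe summary over the arrays processed together, so levels were compared within a set only. Precision is limited by the number of arrays.

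Probe sets were named through the platform annotation, with symbols checked by gene identifier against a current table (204 probe sets without a match kept their symbol, and 0 symbols changed). Probe sets with several genes (932), none (9160) or a control (64) were left out. The brightest probe set over the 21 arrays stood for a gene. Limma 3.58.1 in R 4.3.3 (lmFit, eBayes) was fitted with population as the term over 21 arrays of 7 populations, which share 1 spread, and tested on simulated data. Contrasts of CLP with LSK and with pro-B cells came from the same fit. Intervals are 95% from that fit. The text draws on the 15 largest rises and falls without overlap, up to 4 called members of each list (2 by smallest p where a list had none) and the gate genes. Other members stand as examples of their list. Members and lists were chosen with earlier results of these data known. The 29 lists hold 469 genes measured, and 38 are not analysed here. Alternatives changed the arrays in the fit, scaling, probe set choice, low-value filter, fold threshold, array weights and each array in turn. Promoters came from RefSeq (GRCm38.p6), which the arrays do not use. Python 3.11.15 with pandas 2.3.3, numpy 2.4.6 and matplotlib 3.10.9 made tables and plots.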

Additional observations from a re-analysis of the deposited data

Results flagged for a closer look

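In groups of 4 arrays, a single array far from the other 3 was looked for in the levels of the named genes and in the list means, 140 values in all, and 15 were found. Chance alone marks about 1 in 20 such groups. The 3 HSC arrays are too few for this check.

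On CLP 3 several transcripts that were lower in CLP than in HSC stood above the other CLP arrays. They were Tek at 5.26 (next 3.74), Abcc9 at 5.14 (next 4.20), the immediate early Fosb at 7.95 (next 4.81) and the interferon-induced Ifitm3 at 11.35 (next 10.65). The means of the stem cell transcription regulators (8.28, next 7.98) and of the stem cell surface genes (6.16, next 5.89) were likewise highest on 1 array, and so was the mean of the gate markers (8.84, next 8.37). On CLP 4 Flt3 (10.54, next 11.22), Cd72 (7.37, next 7.84) and the imprinted Plagl1 (6.05, next 7.17) were low. On CLP 1 Mmp9 was high at 8.69 (next 6.29). On CLP 2 Cnn3 (11.11, next 10.48) and Gfra1 (8.81, next 8.22) were high. The mean of the Notch targets was high on 1 array at 6.39 (next 6.07), and that of the macrophage genes was low on 1 array at 4.66 (next 4.95).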

How the results depend on the processing

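Of the 164 called genes that the lists hold or the naming rule picks, 113 were called under every alternative in which they were tested, 134 whichever single array was left out, and 0 were called with the opposite sign. The count of called genes (1261, split 453 higher and 808 lower) moved by over 1.5 times in 3 settings. Leaving out genes of low mean gave 804, split 394 and 410, and took the stem cell surface genes called lower from 17 to 4, the stroma and endothelium genes from 8 to 2 and the imprinted genes from 9 to 5, since fewer genes were then tested. Adjusted p alone gave 2809, split 1405 and 1404. Treat against 1.5-fold gave 697, split 240 and 457. Leaving out 1 array at a time gave 1243 to 1356 genes, 452 to 526 higher and 754 to 892 lower.

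The arrays with raised late neutrophil transcripts had been taken as HSC 5, CLP 4 and CLP 1 (1206 genes without them). The files show them on HSC 5, CLP 1 and CLP 2, and that setting (1191) was chosen after seeing the data. No paired analysis was possible because the CLP titles carry the numbers 1 to 3 or none and the HSC titles 4 to 6. Probe set choice moved single genes most: with the most variable probe set Ebf1 rose by 4.97 and Ccr9 by 2.76, Slamf1 changed by -3.91 and Deptor by -2.63, and with the mean over probe sets Sparc changed by -2.84, Cavin2 by -2.31, Plagl1 by -2.35, Ndn by -1.38, Axl by -1.28 and Deptor by -1.87. Gata2 and Hlf changed by more with the mean (-3.01 and -3.68) and with the most variable probe set (-4.47 and -5.10), Zfp521 by less with the mean (-1.42), and Peg3 (-0.83) and Lyz1 (-0.80) lost their calls with it. In the fit over all 36 arrays the change was -2.62 for Mrc1, -1.80 for Kdr and -2.10 for Cdh5. The causes were not tested. With 4 and 3 arrays, small differences in genes of low signal stay out of reach.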
